A study of Mus musculus with 14 samples.

Results

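The MEIS, PKNOX and PBX proteins are homeobox transcription factors of the TALE class, whose homeodomain carries a short extra loop between its helices. MEIS and PKNOX proteins bind PBX proteins, and either kind can join HOX proteins on DNA. In MLL-rearranged acute myeloid leukaemia, Meis1 and Pbx3 are known as partners of Hoxa9 that help to sustain the leukaemic cells. The genes described here are Meis1, Meis2, Meis3, Pbx2, Pbx3, Pbx4 and Pknox1, taken by their symbols from both deposited expression tables. Of these 7 genes, 6 had values in both tables, among 15251 symbols listed in either table, and the expression of Meis2 is not analysed here.

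RNA was sequenced from primary C57/BL6 mouse leukaemia cells that carried 2 retroviral vectors. The first held a Tet-Off MLL-AF9 fusion gene linked to dsRED, and the other held NRAS G12D and the Tet-Off activator, so that all groups shared both oncogenes and doxycycline switched MLL-AF9 off. The leukaemias arose in irradiated mice given transduced foetal liver cells and were taken from the spleen of sick animals. The groups were DOX cells, treated in vitro with doxycycline for 4 days (n = 4), with untreated UT cells (n = 4), and Id2-GFP cells (n = 3) with control-GFP cells (n = 3), both sorted for GFP 2 days after retroviral transduction. The DOX and UT libraries share a pair label, and the transduced libraries share a replicate number. Pair 4 is labelled TRIMA1 and the other pairs TRIMA2, and 3 of the 4 DOX titles, but no UT title, end in R; the labels do not say what these marks mean. Nothing in the labels says that replicates came from separate animals, so p-values measure the spread between these samples, which may be technical. The comparison with untreated cells asks what follows the loss of MLL-AF9, and the other asks what follows a gain of Id2, an inhibitor of basic helix-loop-helix factors.

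The DOX and UT libraries held 17922644 to 25959766 reads on tabled genes, and the transduced libraries 14051150 to 14948487. Mll1, the symbol under which the table lists Kmt2a, lay between 114 and 144 CPM (reads scaled to a common library size) in DOX cells, against 1998 to 6369 CPM in UT cells, and Mllt3, which encodes AF9, between 5.27 and 6.79 CPM in DOX cells, against 234 to 811 CPM in UT cells. These are values per gene, so reads of the vector fusion and of the endogenous genes were not separated. Id2 lay between 951.7 and 1631 CPM in Id2-GFP cells, against 25.8 to 51.5 CPM in control-GFP cells. The 8 myeloid leukaemia markers all had values. In DOX against UT cells 5 rose (Ptprc, Spi1, Itgam, Fcgr3 and Csf1r), Kit and Cebpa fell and Mpo did not pass. Over all genes, 31.3% rose and 33.8% fell. Csf1r is also among the macrophage markers below. The summed level of the 8 markers, of which Itgam was the largest part, was 5287 to 6033 CPM in DOX cells and 2422 to 2778 CPM in UT cells. Kit had 4.27 ± 2.4 CPM in DOX cells and 52.6 ± 12 CPM in UT cells. Replicate 3 of control-GFP stood apart, with a median Pearson correlation across genes of 0.933 with the other transduced libraries, against 0.954 to 0.979 for the other 5.

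The part of the coding sequence that sets the TALE class apart is shown for the 6 measured genes, because it is what the family shares and where its branches differ. Each stretch of 63 bases comes from the GENCODE M21 coding sequence of GRCm38, reads 5′ to 3′ on the gene's strand, and has the codons for proline, tyrosine and proline of the loop in capitals.
Meis1, chr11:18905727-18941682, minus strand: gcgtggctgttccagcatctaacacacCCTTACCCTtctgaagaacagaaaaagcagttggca
Meis3, chr7:16182445-16183829, plus strand: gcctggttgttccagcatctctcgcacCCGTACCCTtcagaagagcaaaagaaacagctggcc
Pknox1, chr17:31599620-31602824, plus strand: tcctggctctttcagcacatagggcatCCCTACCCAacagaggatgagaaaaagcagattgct
Pbx2, chr17:34594628-34594690, plus strand: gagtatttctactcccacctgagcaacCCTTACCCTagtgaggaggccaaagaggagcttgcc
Pbx3, chr2:34204807-34204869, minus strand: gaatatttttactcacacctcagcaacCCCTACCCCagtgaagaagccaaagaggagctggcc
Pbx4, chr8:69866514-69866576, plus strand: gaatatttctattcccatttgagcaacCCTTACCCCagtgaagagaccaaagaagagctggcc
The stretch crosses an exon boundary in Meis1, Meis3 and Pknox1 and lies within exon 5 in the 3 PBX genes. Over the whole homeobox of 189 bases, Meis1 and Meis3 shared 84.7% of bases, Pbx2 and Pbx3 82.5%, Pbx2 and Pbx4 82.0%, Meis1 and Pknox1 65.1%, and Meis1 and Pbx3 48.7%. Among the transcripts of these 7 genes, a match of at least 50 bases at 90% identity was found only between Meis2 and Meis3, over 57 bases.

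After 4 days of doxycycline the family changed in both directions. Meis1 and Pbx3, the pair known from MLL-rearranged leukaemia, fell most, Pbx4 and Pknox1 fell less, and Meis3 and Pbx2 rose. All 6 measured genes passed the test, 2 upward and 4 downward, at an adjusted p under 0.05 (limma on log2 CPM, Benjamini-Hochberg over 13406 genes), and in all 6 the DOX and UT libraries did not overlap. This is read against a table in which 65.1% of all genes passed, 31.3% upward and 33.8% downward, 68.1% had an unadjusted p under 0.05, and the groups did not overlap for 60% of genes. In bulk RNA, fewer cells of a type and less RNA per cell cannot be told apart.

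Meis1 encodes the MEIS protein that is a known cofactor of Hoxa9 in leukaemia. The gene lies on GRCm38 chromosome 11 from 18879817 to 19018985, and its level in DOX replicates 1 to 4 was 12.4, 11.8, 16.04 and 10.5 CPM, against 75.0, 60.9, 77.4 and 62.5 CPM in the UT libraries of the same pairs. The highest DOX library held 269 reads, and the lowest UT library 1344. The fall was 5.46-fold (log2 change -2.45 ± 0.13 SE, adjusted p = 6.6e-07 in limma), and within pairs the log2 difference ran from -2.59 to -2.27. Of all genes tested, 2.98% changed by as much or more in either direction.

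Pbx3 encodes a PBX protein that binds MEIS1 and HOXA9. It lies on chromosome 2 from 34171457 to 34373142, and it had 16.4, 15.1, 19.7 and 17.4 CPM in DOX replicates 1 to 4, against 55.1, 41.5, 55.7 and 41.8 CPM in UT replicates 1 to 4. All DOX libraries lay below all UT libraries. The fall was 2.81-fold (log2 change -1.49 ± 0.12 SE, adjusted p = 5.6e-06 in limma). Per kilobase of exon, the ratio of Meis1 to Pbx3 was 0.351 to 0.471 in DOX cells and 0.790 to 0.866 in UT cells, so Meis1 fell further than Pbx3 in every pair.

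Pbx4, a PBX gene best known from testis and with low levels here, lies on chromosome 8 from 69832491 to 69872292. It had 1.17, 1.97, 1.91 and 1.08 CPM in DOX replicates 1 to 4, against 2.71, 3.99, 3.63 and 2.37 CPM in UT replicates 1 to 4. These values rest on 23 to 40 reads in DOX libraries and 51 to 92 in UT libraries. The fall was 2.08-fold (log2 change -1.06 ± 0.26 SE, adjusted p = 0.0051 in limma). Replicates 2 and 3 were the higher libraries in both groups, and within pairs the log2 difference ran from -1.19 to -0.91.

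Pknox1, also called Prep1, encodes a relative of the MEIS proteins that likewise binds PBX proteins. It lies on chromosome 17 from 31564734 to 31607693 and had 32.5, 35.7, 33.0 and 37.4 CPM in DOX replicates 1 to 4, against 45.1, 48.4, 43.2 and 43.9 CPM in UT replicates 1 to 4. The groups were apart but close. The fall was 1.30-fold (log2 change -0.38 ± 0.06 SE, adjusted p = 0.00042 in limma), and 49.1% of all genes changed by as much or more. With library totals as the scaling, which moves the median of all genes to -0.27, the log2 change was -0.62.

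Meis3, a MEIS gene with an early role in the hindbrain in frog and fish embryos, was the gene of the family that rose most. It lies on chromosome 7 from 16175090 to 16186504 and had 2.70, 2.07, 3.16 and 2.08 CPM in DOX replicates 1 to 4, against 0.667, 0.476, 0.755 and 0.837 CPM in UT replicates 1 to 4. The counts behind them were 42 to 53 reads in DOX libraries and 11 to 18 reads in UT libraries. The rise was 3.59-fold (log2 change 1.84 ± 0.24 SE, adjusted p = 9.8e-05 in limma). It was smallest in pair 4, the pair labelled TRIMA1, at 1.29 on the log2 scale, against 1.99 to 2.07 in the other pairs.

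Pbx2, a PBX gene expressed in most tissues, lies on chromosome 17 from 34591266 to 34597400. It had 92.7, 89.3, 96.2 and 100.1 CPM in DOX replicates 1 to 4, against 55.2, 60.5, 66.0 and 66.3 CPM in UT replicates 1 to 4. The lowest DOX library stood well above the highest UT library. The rise was 1.53-fold (log2 change 0.61 ± 0.07 SE, adjusted p = 3.4e-05 in limma), and 0.37 on the log2 scale with library totals.

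**Figure D1:**
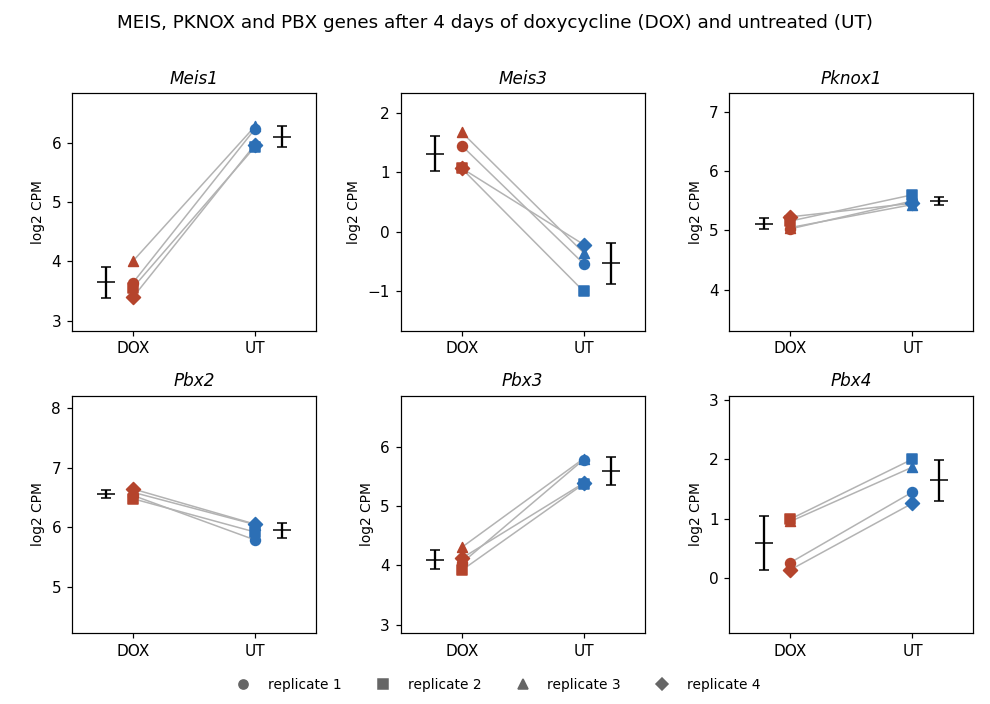
Log2 CPM of each measured gene in DOX cells (red, left) and UT cells (blue, right); symbols mark the replicate, grey lines join the libraries of a pair, and the black bar with whiskers beside each group is its mean with SD (n = 4). Each panel spans the same width of at least 4 log2 units, the lines slope the same way in all 4 pairs of every gene, and Meis3 and Pbx2 are the genes that are higher in DOX cells.

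Between genes, levels were compared as mean CPM per kilobase of exon. In DOX cells the order was Pbx2 with 26.0 ± 1.27, Pknox1 with 5.00 ± 0.33, Pbx3 with 2.81 ± 0.32, Meis1 with 1.20 ± 0.23, Meis3 with 0.788 ± 0.167 and Pbx4 with 0.691 ± 0.212 (SD, n = 4). In UT cells the order was Pbx2 with 17.0 ± 1.45, Pbx3 with 7.94 ± 1.30, Meis1 with 6.54 ± 0.80, Pknox1 with 6.51 ± 0.33, Pbx4 with 1.43 ± 0.34 and Meis3 with 0.216 ± 0.049 (SD, n = 4). Meis3 and Pbx4 overlapped in DOX cells, where the highest Meis3 library (0.996) came next to the lowest Meis1 library (0.997), and Pbx3, Meis1 and Pknox1 overlapped each other in UT cells, so their order within those sets is not resolved. Pbx2 had the highest level per kilobase in both. The length used is that of all annotated exons of a gene, merged, and not that of the transcript expressed here. The order between genes therefore depends on it. In CPM not divided by length, Meis1 had 68.9 ± 8.5 and Pbx2 62.0 ± 5.3 in UT cells, and 12.7 ± 2.4 and 94.6 ± 4.6 in DOX cells.

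The make-up of each branch differed more than its sum did on the PBX side. The summed level of the 3 PBX genes was 29.5 ± 1.42 CPM per kilobase in DOX cells and 26.4 ± 1.70 in UT cells (SD, n = 4). Pbx2 made up 88.1% ± 1.14 of this sum in DOX cells and 64.5% ± 4.29 in UT cells, while Pbx3 made up 9.51% ± 0.75 in DOX cells and 30.04% ± 4.34 in UT cells. On the MEIS and PKNOX side the sum was 6.99 ± 0.23 CPM per kilobase in DOX cells and 13.3 ± 0.66 in UT cells. Meis1 made up 17.2% ± 2.85 of it in DOX cells and 49.2% ± 3.83 in UT cells, and Meis3 made up 11.3% ± 2.25 in DOX cells and 1.63% ± 0.39 in UT cells. Pknox1 had 71.5% ± 4.98 of that sum in DOX cells and 49.2% ± 3.97 in UT cells. These shares rest on the same exon lengths, restate the changes of the single genes and were not tested.

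**Figure D2:**
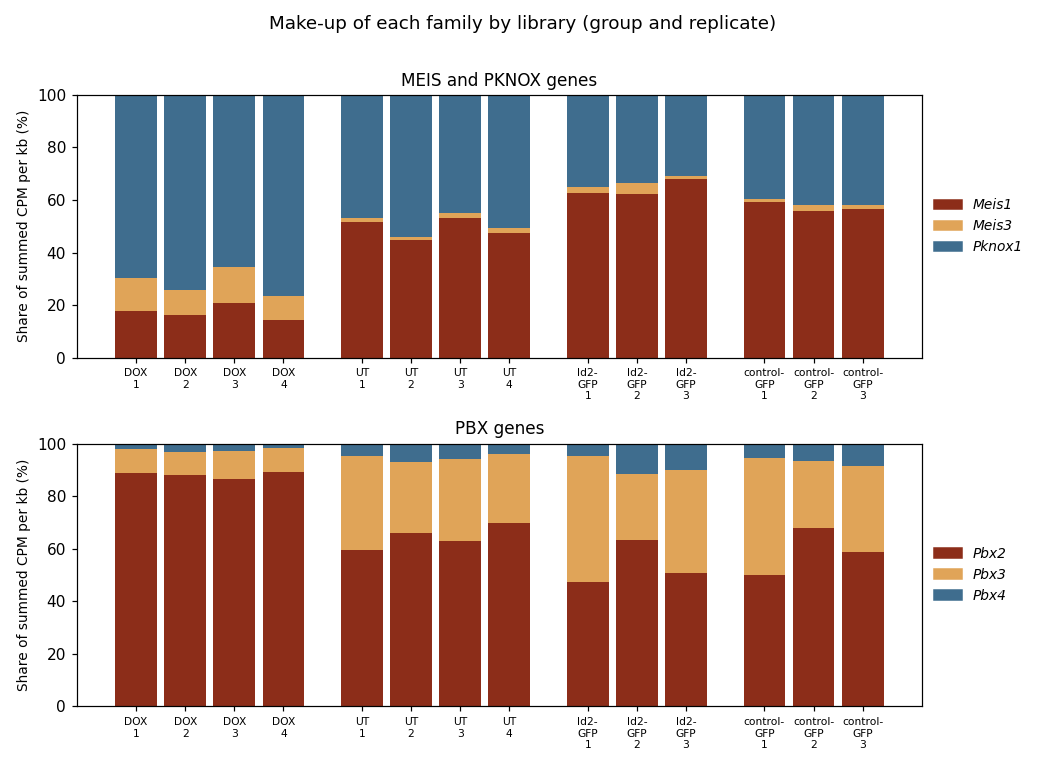
Share of each gene in the summed CPM per kilobase of its branch, in percent, as stacked bars for each library, labelled by group and replicate, with the MEIS and PKNOX genes above and the PBX genes below. Pbx2 takes 86.6% to 89.2% of the PBX bar in the 4 DOX libraries and 59.7% to 69.7% in the 4 UT libraries; the DOX and UT libraries and the transduced libraries come from tables that were normalized apart.

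The other genes of the pathway were counted from lists of related genes. Each count is to be read against the 65.1% of all genes that passed, 31.3% upward and 33.8% downward. No list was tested as a set. Of 12 further TALE-class genes with the PBX-binding protein gene Pbxip1, 5 had values, of which 3 rose and 1 fell (median log2 change 0.39, against -0.03 over all genes). Tgif1, a TALE-class repressor of TGF-beta signalling, rose 1.89-fold to 45.8 ± 1.7 CPM in DOX cells, against 24.2 ± 1.3 CPM in UT cells (log2 change 0.92 ± 0.06 SE, adjusted p = 1.0e-06 in limma). Its relative Tgif2 rose by 0.72 on the log2 scale (adjusted p = 0.012 in limma), a call lost with scaling by library totals (adjusted p = 0.071). Pbxip1 rose by 0.39 (adjusted p = 0.00081 in limma), and by 0.15 with library totals (adjusted p = 0.044). Irx5, an Iroquois factor, fell to 0.131 ± 0.13 CPM in DOX cells, against 5.15 ± 3.8 CPM in UT cells (adjusted p = 0.00023 in limma).

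Of 39 HOX genes of the 4 clusters, whose products are the DNA-binding partners of PBX and MEIS proteins, 10 had values, 8 fell and 0 rose (median log2 change -1.33). The genes with the smallest p were Hoxa5, Hoxa6, Hoxa7 and Hoxa9, with log2 changes from -1.99 to -1.75. Hoxa9, the known partner of Meis1 and Pbx3, had 37.8 ± 4.5 CPM in DOX cells and 144 ± 14 CPM in UT cells. Hoxb4 did not pass, with a log2 change of -0.03.

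Among 15 genes reported as co-regulators of MEIS and PBX proteins or as factors in their turnover, 14 had values, with 5 rising and 5 falling (median log2 change 0.04), a share near that over all genes. With library totals these counts were 2 and 8, since that scaling lowers all log2 changes, by its construction. Trib1, a pseudokinase gene known to cooperate with Meis1 and Hoxa9 in mouse leukaemia, rose by 1.28 (adjusted p = 0.00019 in limma). Hdac1 and Creb1, a histone deacetylase gene and the gene of a factor reported to act with MEIS1, fell by 0.35 (adjusted p = 3.0e-05) and 0.32 (adjusted p = 0.00019) on the log2 scale. These 3 genes kept their direction and passed under all scalings tried, Hdac1 and Creb1 at -0.59 and -0.56 with library totals. Other calls, named after their values were seen, were Crbn, Crtc2 and Ep300 upward (0.16 to 0.24) and Ddb1, Hdac3 and Ncor1 downward (-0.33 to -0.20). With library totals Crbn and Crtc2 turned to -0.08 and -0.01, and Crbn, Crtc2 and Ep300 did not pass.

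Of 22 genes reported as targets of MEIS1 or its partners, 21 had values, 13 fell and 5 rose (median log2 change -1.02). Myb fell 7.05-fold to 85.1 ± 11 CPM in DOX cells, against 598 ± 42 CPM in UT cells (adjusted p = 1.9e-07 in limma). Cdk6 fell 3.82-fold, Erg 3.09-fold and Mef2c 2.40-fold. The 5 that rose, named after their values were seen, were Ccnd1, Ccnd3, Epas1, Pf4 and Syk, with log2 changes from 0.21 for Ccnd3 to 1.27 for Epas1, and Ccnd3 turned to -0.03 with library totals.

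**Figure D3:**
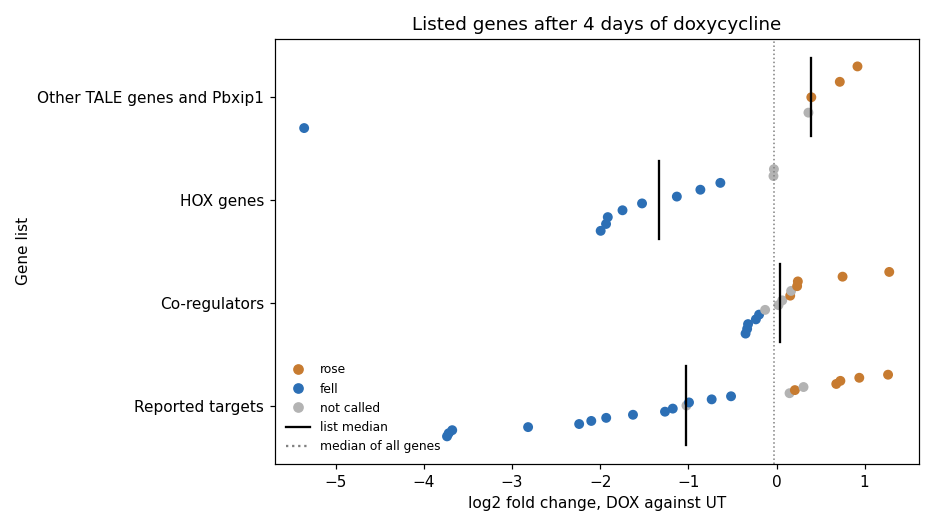
Log2 fold change in DOX against UT cells for the measured genes of the 4 lists, a point per gene; orange points rose and blue points fell at an adjusted p under 0.05, grey points did not pass. Black bars mark list medians, from -1.33 for the HOX genes to 0.39 for the other TALE genes, and the dotted line marks the median of all genes, -0.03.

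Markers of mature myeloid cells moved with these changes. Of 10 macrophage markers, 9 rose, and their summed level was 24691 to 35839 CPM in DOX cells and 2976 to 5714 CPM in UT cells. Most of that sum was Lyz2, with 26854 ± 5132 CPM in DOX cells and 2987 ± 1249 CPM in UT cells. Of 7 neutrophil markers, 6 rose and 1, Elane, fell, with a summed level of 1065 to 2623 CPM in DOX cells and 334 to 705 CPM in UT cells. Their part in the changes of the MEIS, PKNOX and PBX genes was not tested. Of 7 erythroid markers, 0 had values, and of the 6 B cell and the 6 T cell markers 1 each had values, Cd79b and Lck. Of 6 megakaryocyte markers, 3 had values; Pf4 rose and Itga2b and Gp9 fell. Most of their sum was Itga2b, and it came to 6.02 to 13.1 CPM in DOX cells and 22.1 to 47.3 CPM in UT cells. Of 6 stromal and endothelial markers, 2 had values, Pdgfrb and Pecam1, summing to 76.4 to 111 CPM in DOX cells and 293 to 319.8 CPM in UT cells.

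Genes with the most similar profile were found by the root mean square difference of centred log2 CPM over the 8 libraries of the doxycycline table, which share the contrast between DOX and UT. For Meis1 they were Heg1 (0.122), Ctsg (0.184) and Myb (0.206). Pbx3 lay nearest to Pdcd4 (0.103), Mir17hg (0.118) and Klhl23 (0.132), and Pbx4 to Hoxa2 (0.116), Prss16 (0.145) and Vdr (0.146). Meis3 lay nearest to Cd14 (0.128), a monocyte marker, then Plaur (0.131) and Ccdc19 (0.141). Pknox1 lay nearest to Nfkb1 (0.031), Ndor1 (0.035) and Msl3 (0.039), and Pbx2 to Ranbp10 (0.041), Insr (0.046) and Pxn (0.048). The likeness is a description over 8 libraries.

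Id2 gave no call in the family. None of the 6 measured genes passed in Id2-GFP against control-GFP cells, and 0 reached an unadjusted p under 0.05, in limma and with voom weights alike. Among its 14563 genes, 0.0137% passed and 2.45% had an unadjusted p under 0.05. The intervals below come from the fit without pairing, except where the replicate block is named, and give the changes that it leaves possible.

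Meis1 had 122.9, 150.2 and 120.6 CPM in Id2-GFP replicates 1 to 3, against 112, 123 and 67.9 CPM in control-GFP replicates 1 to 3. The groups overlapped, and the lowest value belonged to control-GFP replicate 3, the library that stood apart. The log2 difference was 0.42 ± 0.25 SE, with a 95% interval from -0.17 to 1.00 (adjusted p = 1.00 in limma). Without that library it was 0.15, with an interval from -0.21 to 0.51. It was positive in all 3 pairs, at 0.13, 0.29 and 0.83.

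Pbx3 had 105.8, 44.9 and 96.98 CPM in Id2-GFP replicates 1 to 3, against 100.5, 43.7 and 79.2 CPM in control-GFP replicates 1 to 3. Replicate 2 was low in both groups, so the spread of Pbx3 followed the replicate number rather than the vector. The log2 difference was 0.14, with an interval from -0.82 to 1.09. With the replicate block, that interval was -0.26 to 0.53.

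Meis3 had 1.37, 3.07 and 0.624 CPM in Id2-GFP replicates 1 to 3, against 0.526, 1.38 and 0.521 CPM in control-GFP replicates 1 to 3, from 9 to 44 reads and 7 to 20 reads. It was higher with Id2 in each pair, by 1.33, 1.13 and 0.24 on the log2 scale, but the groups overlapped (mean 0.90, interval -0.68 to 2.48). The mean was 0.34 without Id2-GFP replicate 2 and 1.45 without Id2-GFP replicate 3. Pbx4 had 3.72, 7.66 and 9.16 CPM in Id2-GFP replicates 1 to 3, against 4.603, 4.22 and 7.29 CPM in control-GFP replicates 1 to 3, a log2 difference of 0.29 (interval -0.65 to 1.23), which was 0.035 without Id2-GFP replicate 3 and 0.68 without Id2-GFP replicate 1.

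Pbx2 and Pknox1 differed least. Pbx2 lay between 62.4 and 75.5 CPM in Id2-GFP cells and between 67.2 and 84.2 CPM in control-GFP cells, a log2 difference of -0.10 with an interval from -0.49 to 0.29. Pknox1 lay between 36.0 and 53.0 CPM in Id2-GFP cells and between 33.2 and 60.9 CPM in control-GFP cells, a log2 difference of -0.07 with an interval from -0.69 to 0.54. Per kilobase, the ratio of Meis1 to Pknox1 was 1.79, 1.87 and 2.20 in Id2-GFP replicates 1 to 3 and 1.496, 1.33 and 1.35 in control-GFP replicates 1 to 3. These ratios did not overlap, which is a description of 1 of 4 ratios looked at. Among single genes of that table, the groups did not overlap for 6.95%.

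**Figure D4:**
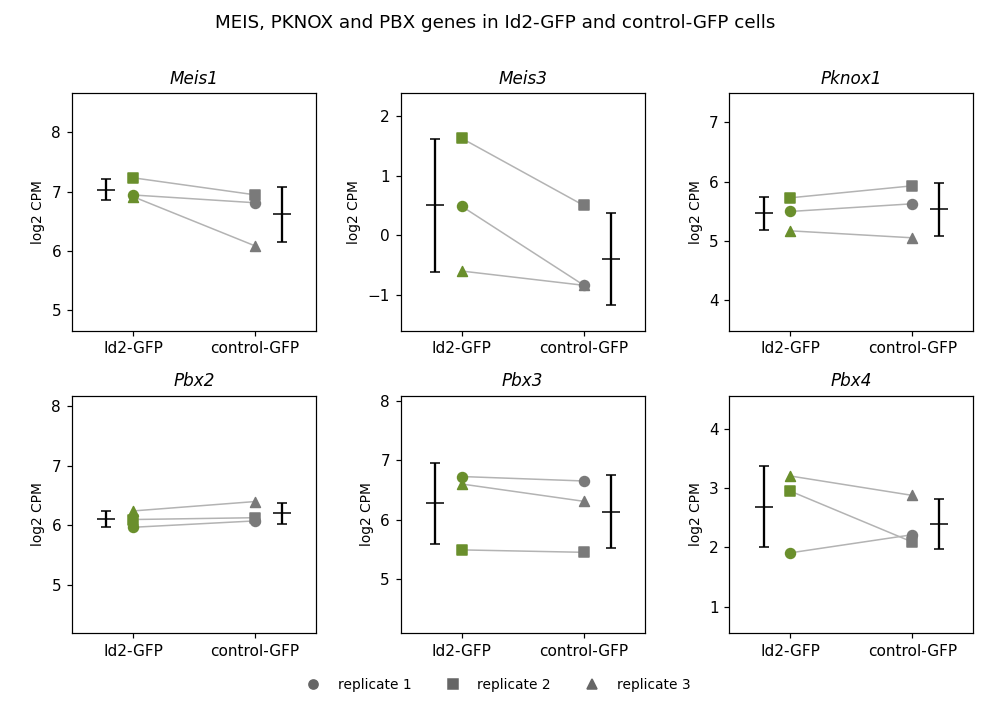
Log2 CPM of each measured gene in Id2-GFP cells (green, left) and control-GFP cells (grey, right); symbols mark the replicate, grey lines join libraries with the same number, and the black bar with whiskers is the group mean with SD (n = 3). Pbx3 shows replicate 2 low in both groups, near 44 CPM, and Meis1 shows control-GFP replicate 3 below the other 5 libraries.

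Of the related genes, none passed with Id2 in the lists of TALE-class genes (5 with values), HOX genes (10), co-regulators (14) and targets (20), in limma and with voom weights alike, and 1, 2, 0 and 2 of them had an unadjusted p under 0.05. Tgif1 had 43.9 ± 4.5 CPM in Id2-GFP cells and 26.6 ± 3.8 CPM in control-GFP cells (SD, n = 3; log2 difference 0.73, adjusted p = 1.00 in limma). Ccnd3, a cyclin gene, had 163.8 ± 12.7 CPM in Id2-GFP cells and 284 ± 31.3 CPM in control-GFP cells (adjusted p = 1.00 in limma). In both of these genes the groups did not overlap, as for 6.95% of all genes in that table. The other genes of these lists with groups apart were Hoxa3, Hoxa6, Cul4a, Sox4, Cd34 and Lmo2, all higher in Id2-GFP cells. They are named after their values were seen, and no list was tested as a set. Over all genes, 2.45% had an unadjusted p under 0.05 in limma.

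**Figure D5:**
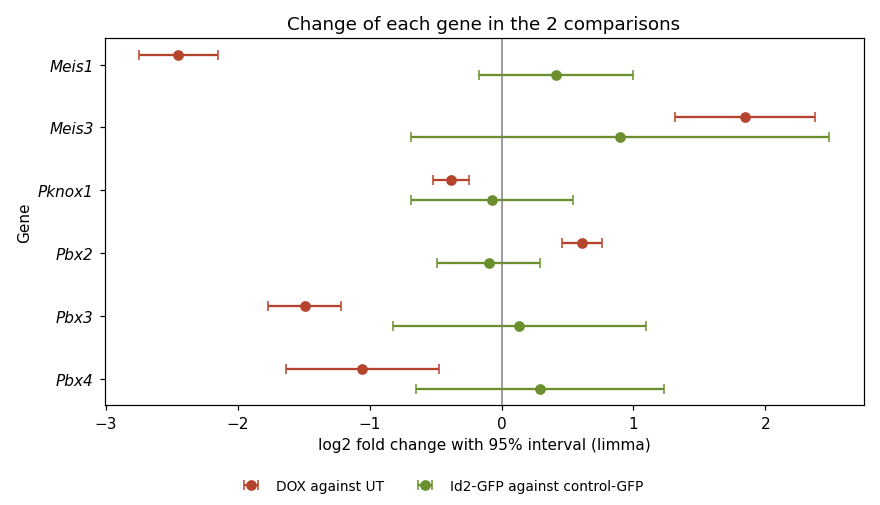
Log2 fold change of each measured gene with its 95% interval from limma, for DOX against UT (red) and Id2-GFP against control-GFP (green). All 6 red intervals exclude 0, with Meis3 and Pbx2 to its right, and all 6 green intervals include 0; the difference between the 2 comparisons was not tested.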

How the data were processed

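The authors deposited 2 tables of log2 values, per the file headers; the values show each to be a log2 CPM of reads plus 0.5 over a scaled library size, and removing that offset gave whole reads for 100% of values within 0.01 read. Per the submitters' processing notes, the tools were limma, HTSeq, TopHat2 and CASAVA 1.8.2 and the build was mm10, with no roles given. Strand is not given in the sources used here, so genes that overlap on opposite strands cannot be told apart. Strand would not separate genes that overlap on the same strand. Overlaps were between Meis1 and Gm16140 (antisense, 896 exon bases) and Gm37818 (same strand, 1029), Pbx2 and Gpsm3 (same strand, 227), and Pknox1 and AC166172.4 (antisense, 155). Gpsm3 rose in DOX against UT cells (log2 change 0.94 ± 0.06 SE, adjusted p = 1.7e-06 in limma), and its part in the values of Pbx2 was not tested. Both tables had been filtered on low values.

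Each table (13406 and 14563 genes, after 13 repeated entries were removed from the doxycycline table) was fitted alone with limma 3.58.1 in R 4.3.3, with a variance trend, two-sided, and Benjamini-Hochberg adjustment over all its genes; the threshold was 0.05. The fit was tested on simulated reads, drawn with the same setting of spread for every gene and no difference between pairs. That test therefore does not measure the power of the fit in the real data. CPM are the recovered reads over the scaled library size. CPM per kilobase use GENCODE M21 exon lengths, with the exons of all transcripts of a gene merged. The reads carry no molecular identifiers, so read counts bear on counting error only. Spi1 and Adgre1 were listed as Sfpi1 and Emr1.

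Same-numbered libraries deviated together, with correlations of 0.454 to 0.552 between DOX and UT (4 pairs, which share a pair label) and 0.472 to 0.581 between Id2-GFP and control-GFP (3 pairs, which share a number), so the numbers were taken to pair the samples. The main fit did not use this pairing, so SE, p-values and intervals are unpaired unless the replicate block is named. That block adds a term for each pair to the fit.

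The genes and lists were chosen with earlier results of these data known. Named genes are the 7 family genes, the genes with the lowest p in each list (at most 4), and the 3 nearest profiles of each gene among genes that are not ribosomal, mitochondrial, predicted or clone entries; others are named where a count needed it, and a few genes that the rule names are not reported here. Alternatives were the replicate block, leaving out libraries or pairs, other scalings, an offset of 2 reads, a floor of 1 on mean log2 CPM, no variance trend, and voom weights, which were added after seeing the data.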

Additional observations from a re-analysis of the deposited data

How the results depend on the processing

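In DOX against UT, Meis1, Pbx2, Pbx3, Pbx4 and Pknox1 kept their direction and passed in all 20 alternatives, and Meis3 in 19. With the floor on low values Meis3 was not tested, because its mean log2 CPM lies below 1, and the count that rose was 1 in place of 2. The log2 change ranged from -2.69 to -2.36 for Meis1, -1.73 to -1.41 for Pbx3, -1.30 to -0.91 for Pbx4, -0.62 to -0.35 for Pknox1, 1.60 to 2.03 for Meis3 and 0.37 to 0.65 for Pbx2. Pbx4 had the highest adjusted p, 0.024 in limma without pair 1. The replicate block left 4 falling and 2 rising, and raised the calls over all genes to 9326, against 8733 without it.

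In Id2-GFP against control-GFP, 0 of the measured genes passed in each of the 17 alternatives, the replicate block included; over all genes the block gave 35 calls, against 2 without it, and both of the 2 were among the 35. With the block the interval was -0.03 to 0.86 for Meis1 and -0.02 to 1.82 for Meis3, and it changed no call on the family. Leaving out libraries turned the sign of uncalled differences: it moved Pbx3 between -0.21 and 0.53, Pknox1 between -0.31 and 0.13, and Pbx2 between -0.17 and 0.00081. It moved Meis3 between 0.34 and 1.45 and Pbx4 between 0.011 and 0.68. Control-GFP replicate 3 decided the size for Meis1, at 0.42 with it and 0.15 without it. The quasi-likelihood and negative binomial tests on recovered reads that had been planned were not run, since the deposited unit is log2. Reads limit Meis3 and Pbx4 most.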

Other observations

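Genes within 500 kb of each family gene, a window chosen after the data were seen, were counted in the doxycycline table. Meis1 had 0 measured neighbours. Around Pbx4, 13 of 23 measured neighbours fell and 3 rose in DOX against UT cells, and around Meis3, 10 of 17 rose and 4 fell. Around Pbx2, 15 of 48 rose and 14 fell, around Pknox1, 3 of 10 rose and 5 fell, and around Pbx3, 2 of 9 rose and 3 fell. Over all genes of that table, 31.3% rose and 33.8% fell.

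The RefSeq promoter table of GRCm38.p6 held Meis1, Meis2, Meis3, Pbx2 and Pbx4. Their 250 bases before the start were searched on both strands for the MEIS core TGACAG, the PBX-MEIS core TGATTGAC, the PBX-HOX motif TGATTNAT and the CREB motif TGACGTCA. Of the 5 windows, 0 held any of them, against 15.9%, 0.691%, 2.82% and 1.55% of 32851 promoters. The windows held 13 CpG dinucleotides for Meis1, 7 for Meis2, 12 for Meis3, 27 for Pbx2 and 12 for Pbx4, against a median of 6 over all promoters.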
